A study of Mus musculus with 12 samples.

Results

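The 9 genes described here belong to the interferon response, the transcriptional programme that cells switch on against viruses. They were taken from a list of interferon signalling and induced genes and were the ones present in the gene table: Stat2, Irf9, Irf1, Irf3, Irf7, Ifit1, Ifit3, Ifitm3 and Bst2, which makes 9 of the 17283 genes in that table. The tissue was mouse medial prefrontal cortex (mPFC), and the study asked whether astragaloside IV (ASIV), a triterpenoid glycoside from Astragalus, acts on neurotransmission in BTBR mice, which serve as an autism model. The 12 libraries formed 4 groups of 3. BTBR ASIV libraries came from BTBR mice, labelled as an inbred strain, that were injected intraperitoneally with ASIV for 7 days, and BTBR vehicle libraries came from BTBR mice that received the solvent control, named DMSO in the sample titles. C57 ASIV and C57 vehicle libraries came from C57 mice, labelled WT, with the same treatments. The sources used here do not give the age, the sex or the number of animals behind each library. Because nothing in the labels says that the 3 libraries of a group came from separate animals, the p-values measure the spread between these libraries, which may be technical.

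Type I interferons bind a receptor whose kinases phosphorylate STAT2, which acts with IRF9 in the complex ISGF3, and this complex binds the interferon-stimulated response element (ISRE) of its target genes. Interferon-gamma signals through its own receptor to gamma-activated sites (GAS) and induces, among others, Irf1. In the brain, microglia, endothelial cells and astrocytes are known to respond to interferon, and several of the induced genes are expressed at a low level without infection.

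Promoter sequences of the listed genes are shown because the ISRE is the element through which the family is commonly controlled. RefSeq windows of 300 bases on GRCm38.p6, from 250 bases before to 50 bases after an annotated start, were found for all 9 genes, with a second start for Irf1 and Irf9. They were searched on both strands for the ISRE core, which is GAAA repeated after any 2 bases, and for the GAS motif TTCNNNGAA. The whole window follows for the 3 genes whose RNA differed between groups, then the stretch around the matches for the other 3 with an ISRE core, all 5′ to 3′ on the strand of the gene, with ISRE cores in capitals.
Ifitm3 (chr7:141010695-141010994, - strand): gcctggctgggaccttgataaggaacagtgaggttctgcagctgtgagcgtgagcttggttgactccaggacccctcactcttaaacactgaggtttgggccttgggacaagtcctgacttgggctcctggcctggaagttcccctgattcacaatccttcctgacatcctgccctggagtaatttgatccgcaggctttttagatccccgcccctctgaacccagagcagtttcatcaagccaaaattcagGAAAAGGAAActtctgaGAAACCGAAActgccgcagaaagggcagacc
Bst2 (chr8:71537423-71537722, - strand): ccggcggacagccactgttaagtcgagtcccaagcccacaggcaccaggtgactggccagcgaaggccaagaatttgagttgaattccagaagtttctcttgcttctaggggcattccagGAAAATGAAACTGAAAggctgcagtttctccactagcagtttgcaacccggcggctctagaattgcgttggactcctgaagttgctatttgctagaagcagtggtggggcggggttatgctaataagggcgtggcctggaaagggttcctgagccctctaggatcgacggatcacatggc
Irf3 (chr7:44997398-44997697, + strand): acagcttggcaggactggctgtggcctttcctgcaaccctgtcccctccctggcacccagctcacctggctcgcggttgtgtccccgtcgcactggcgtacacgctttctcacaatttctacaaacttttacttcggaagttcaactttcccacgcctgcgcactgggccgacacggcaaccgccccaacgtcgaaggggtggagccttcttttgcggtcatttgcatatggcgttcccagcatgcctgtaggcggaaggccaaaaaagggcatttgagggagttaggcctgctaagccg
Ifit1 (chr19:34640775-34640823, + strand): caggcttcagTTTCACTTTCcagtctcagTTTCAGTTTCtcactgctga
Ifit3 (chr19:34583363-34583426, + strand): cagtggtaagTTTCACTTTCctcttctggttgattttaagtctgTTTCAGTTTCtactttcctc
Stat2 (chr10:128270266-128270295, + strand): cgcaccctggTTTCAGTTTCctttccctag

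The ISRE core was present in 5 of the 9 genes, against 3.3% of the 9913 tested genes with a window and 3.44% of all 32851 RefSeq windows. Ifit1 had 2 cores at -104 to -95 and -85 to -76 relative to the start, and Ifit3 had 2 at -156 to -147 and -122 to -113, so both genes of the IFIT family carried the pair upstream of the start. In Ifitm3 the 2 cores lay after the start, at 3 to 12 and 20 to 29. Bst2 had 2 cores that overlap each other, from -130 to -121 and from -124 to -115, and Stat2 had 1 at -222 to -213. GAS matches were found in Irf1 (-90 to -82), Bst2 (-136 to -128) and Ifitm3 (14 to 22), the last 2 overlapping an ISRE core. The share with a GAS match was 7.76% of tested genes with a window and 8.3% of all windows. The windows of Irf3, Irf7 and Irf9 held neither string, which says only that these letters are not in those 300 bases. All windows are of the reference genome, and the sequence in BTBR mice was not examined.

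**Figure D1:**
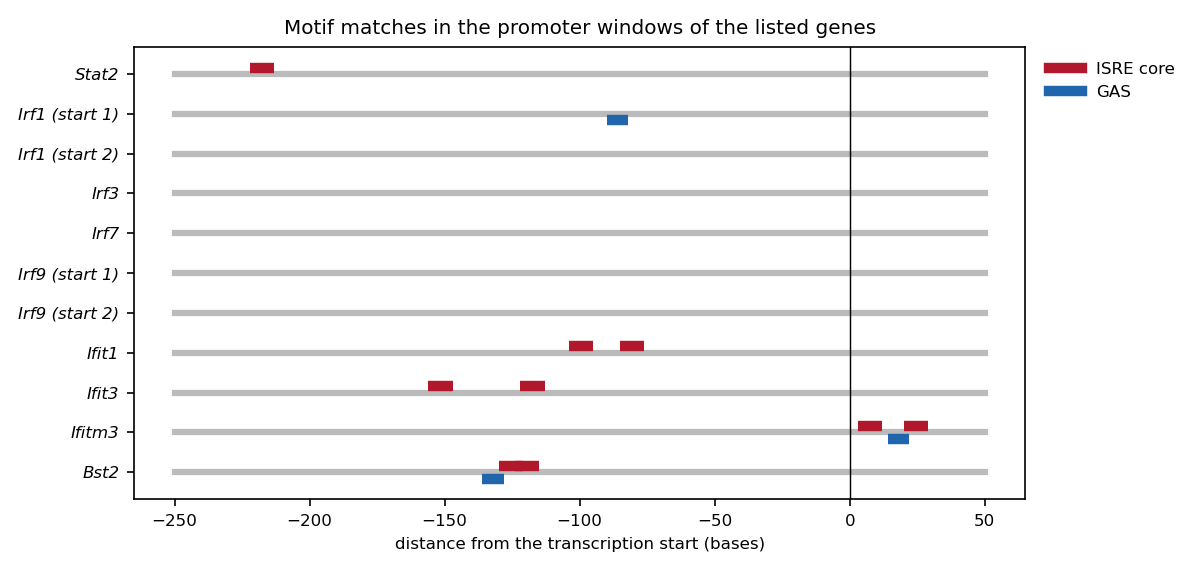
Positions of ISRE core (red) and GAS (blue) matches in the RefSeq promoter windows of the 9 genes, with the distance from the annotated transcription start in bases on the x axis and 1 grey line per window. Ifit1, Ifit3, Ifitm3 and Bst2 each carry 2 ISRE cores, and those of Ifitm3 are the only ones after the start.

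Levels are in FPKM, a fragment count divided by gene length and by library depth, and that depth was 16166326 to 18660034 fragments. All 9 genes reached 1 FPKM in at least 3 libraries and were among the 13586 genes tested. They rested on few fragments: between 28 and 80 per library for Ifit1, 67 to 229 for Ifitm3, 53 to 122 for Bst2 and 292 to 481 for Stat2. The table gives no value of 0. Of Ifit3, 51.2% of the 50-base words are shared with its near-identical neighbour Ifit3b, so reads may be split between them. The same share was 10% for Ifitm3 (with Ifitm1, Ifitm2 and other loci) and 7.13% for Ifit1 (with Ifit1bl1 and Ifit1bl2). Exons of Irf1, Irf3 and Irf7 overlap a gene on the other strand over 1.19 to 3.4% of their length, Irf9 overlaps Rnf31 on its own strand over 2.28%, and the sources used here do not state the strand used in counting.

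Before any test, the 3 BTBR vehicle libraries stood apart from the other 9. Genes of the mitochondrial genome took 0.589 to 1.16% of their fragments, against 3.57 to 5.24% in the other libraries. In BTBR vehicle the summed cortical neuron markers, present in all libraries at 1027 to 1492 FPKM, were the lowest (1027 to 1106 FPKM, against 1190 to 1266 in BTBR ASIV, 1226 to 1332 in C57 ASIV and 1414 to 1492 in C57 vehicle). The markers did not move as one: Camk2a averaged 555.6 FPKM in BTBR ASIV and 387.4 FPKM in BTBR vehicle, while Slc17a7 averaged 286.5 and Tbr1 30.7 FPKM in BTBR ASIV, against 346.7 and 42.8 FPKM in BTBR vehicle. Striatal marker sums varied widely between the libraries of every group. In BTBR mice they ran from 39.4 to 321.3 FPKM under ASIV and from 63.7 to 148.2 FPKM under vehicle. In C57 mice they ran from 39.7 to 180.5 FPKM under ASIV and from 52.4 to 151.1 FPKM under vehicle. Every comparison with BTBR vehicle rests on these 3 libraries, whose part in the results below was not tested. The comparison of the strains under ASIV does not use their levels, though they enter its estimate of the spread.

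Among the 9 genes, Ifitm3 had the highest mean in every group and Irf7 the lowest. In the 2 C57 groups and in BTBR ASIV the Ifitm3 range lay above that of every other listed gene, while in BTBR vehicle it overlapped the next gene's range. There Ifitm3, Bst2, Irf3 and Ifit3 averaged 7.06, 6.95, 6.56 and 5.73 FPKM, with each range overlapping the next. In C57 vehicle Ifit3, Irf3, Bst2 and Stat2 followed Ifitm3 at 4.22, 4.03, 3.96 and 3.34 FPKM, also overlapping from one gene to the next. Irf9, Irf1, Ifit1 and Irf7 averaged from 0.807 to 2.03 FPKM in all 4 groups. Over all 12 libraries the mean of Ifitm3, 12.9 FPKM, was at the 71.6th percentile of the genes tested, and that of Irf7, 0.923 FPKM, at the 2.97th.

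**Figure D2:**
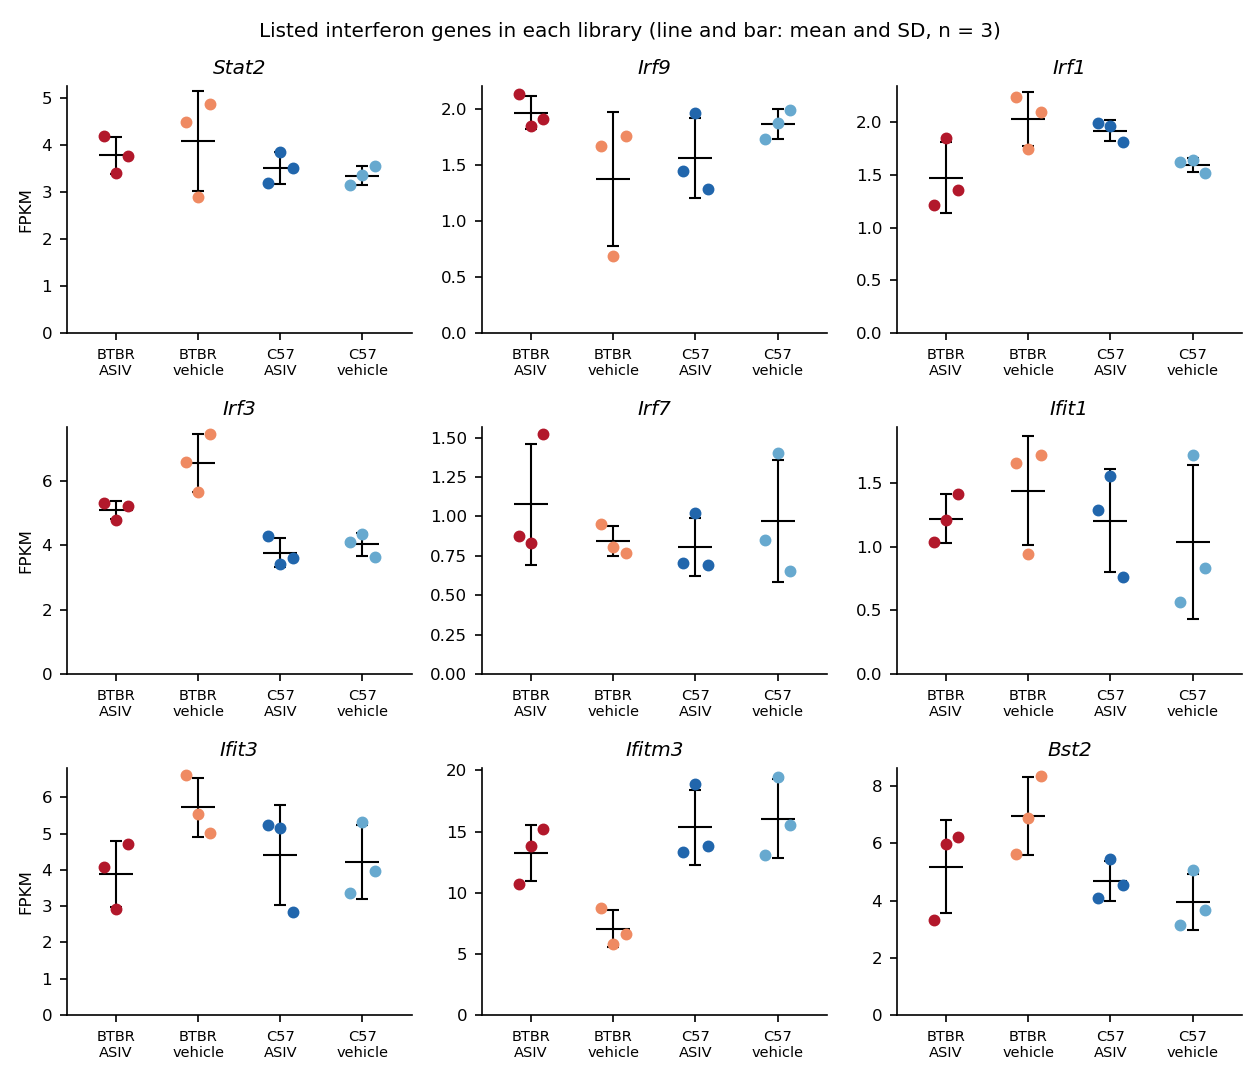
FPKM of the 9 interferon genes in each library, by group (x axis); points are libraries, the line is the mean and the bar the SD (n = 3). For Ifitm3 the 3 BTBR vehicle libraries, between 5.79 and 8.72 FPKM, lie below the other 9, and for Irf3 they lie above all others.

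Ifitm3 encodes a membrane protein that blocks the fusion of virus with endosomal membranes. The gene (ENSMUSG00000025492, chr7:141009586-141010770 on mm10) had 10.7, 13.8 and 15.2 FPKM in the BTBR ASIV libraries, against 8.72, 5.79 and 6.66 FPKM in the BTBR vehicle libraries. In C57 mice it had 13.3, 18.9 and 13.8 FPKM under ASIV and 13.1, 19.5 and 15.5 FPKM under vehicle. BTBR vehicle was thus low in all 3 libraries with no overlap with any other group, whereas the 2 C57 groups and BTBR ASIV overlapped. Ifitm3 rose in BTBR ASIV against BTBR vehicle, by 0.82 ± 0.18 in log2(FPKM + 1) (SE; adjusted p = 0.00561), a ratio of mean FPKM of 1.87. Adding 1 FPKM before the logarithm understates the change of low genes, so for genes near 1 FPKM the log2 differences below are smaller than those of the FPKM themselves. It was lower in BTBR vehicle than in C57 vehicle by a log2 difference of -1.08 ± 0.18 (adjusted p = 0.000606), with a ratio of 0.44. Both calls held in all 23 alternative analyses. Under ASIV the strains were not called different (-0.20 ± 0.18, adjusted p = 0.58), and ASIV in C57 mice gave -0.06 ± 0.18 (adjusted p = 1.0). The difference between the 2 ASIV effects was itself called (0.88 ± 0.26, adjusted p = 0.0395). That call was lost with voom on recovered fragments (adjusted p = 0.0547) and on leaving out any 1 of 8 libraries, namely BTBR ASIV 2 or 3, BTBR vehicle 2 or 3, C57 ASIV 1 or 3 and C57 vehicle 2 or 3 (adjusted p 0.0695 to 0.0964).

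Bst2, also called tetherin, holds budding virions at the cell surface. The gene (ENSMUSG00000046718, chr8:71534255-71537456) had 5.63, 6.87 and 8.36 FPKM in BTBR vehicle, against 3.15, 5.05 and 3.68 FPKM in C57 vehicle. BTBR ASIV libraries had 3.31, 5.99 and 6.23 FPKM, and C57 ASIV libraries had 4.08, 5.45 and 4.55 FPKM. The 2 vehicle groups did not overlap, and BTBR ASIV, with 1 low library, overlapped every other group. Bst2 was higher in BTBR vehicle than in C57 vehicle by 0.69 ± 0.21 (adjusted p = 0.0181), opposite in direction to Ifitm3 in the same libraries. The call was lost without BTBR vehicle 3 (0.56, adjusted p = 0.0723), C57 vehicle 1 (0.57, adjusted p = 0.0755) or C57 vehicle 3 (0.65, adjusted p = 0.0539). ASIV in BTBR mice gave -0.39 ± 0.21 (adjusted p = 0.176) and the strains under ASIV 0.09 ± 0.21 (adjusted p = 0.847), neither of which passed.

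The IFIT genes encode tetratricopeptide proteins that bind viral RNA and restrain its translation. Ifit3 had 4.07, 2.91 and 4.71 FPKM in BTBR ASIV, against 6.62, 5.54 and 5.03 FPKM in BTBR vehicle. Its values were 5.25, 5.16 and 2.83 FPKM in C57 ASIV and 3.35, 5.33 and 3.98 FPKM in C57 vehicle. The BTBR groups did not overlap, with all ASIV libraries below all vehicle libraries, but the difference of -0.47 ± 0.21 missed the threshold (adjusted p = 0.106). Ifit1 had 1.04, 1.21 and 1.42 FPKM in BTBR ASIV, against 1.66, 0.948 and 1.72 FPKM in BTBR vehicle. In C57 mice it had 1.29, 1.56 and 0.763 FPKM under ASIV and 0.565, 1.72 and 0.834 FPKM under vehicle. All 4 groups of Ifit1 overlapped, and its lowest adjusted p over the 5 comparisons was 0.287.

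Among the transcription factors, Irf3 (ENSMUSG00000003184, chr7:44997648-45002848), which is activated by nucleic acid sensing and starts interferon transcription, had 5.31, 4.78 and 5.22 FPKM in BTBR ASIV, against 6.57, 5.65 and 7.46 FPKM in BTBR vehicle. It had 4.29, 3.43 and 3.6 FPKM in C57 ASIV and 4.09, 4.35 and 3.65 FPKM in C57 vehicle. BTBR vehicle was highest, BTBR ASIV intermediate and both C57 groups low, and the BTBR groups overlapped neither each other nor C57. Irf3 was higher in BTBR vehicle than in C57 vehicle by 0.58 ± 0.11 (adjusted p = 0.00109), a call that held in all 23 alternatives. The decrease with ASIV in BTBR mice, -0.30 ± 0.11, missed the threshold (adjusted p = 0.0531), and so did the difference of the strains under ASIV, 0.36 ± 0.11 (adjusted p = 0.106).

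Irf1, a factor induced by interferon-gamma that binds ISRE-like sites, had 1.21, 1.85 and 1.36 FPKM in BTBR ASIV, against 2.24, 1.74 and 2.1 FPKM in BTBR vehicle. Its C57 values were 1.99, 1.96 and 1.81 FPKM under ASIV and 1.62, 1.64 and 1.52 FPKM under vehicle. The BTBR groups overlapped through 1 ASIV library, while in C57 all ASIV libraries lay above all vehicle libraries. None of these differences was called: ASIV in BTBR mice gave -0.29 ± 0.11 (adjusted p = 0.0624), ASIV in C57 mice 0.17 ± 0.11 (adjusted p = 1.0), and the 2 effects differed by -0.47 ± 0.16 (adjusted p = 0.0643). With a pseudocount of 0.1 the Irf1 differences were larger, at -0.45 for ASIV in BTBR mice and -0.70 for the interaction, and were not called. Quantile normalization brought both Irf1 (-0.34, adjusted p = 0.035) and Irf3 (-0.32, adjusted p = 0.0365) past the threshold for ASIV in BTBR mice, and so did leaving out BTBR vehicle 2 (Irf1 -0.37, adjusted p = 0.0373; Irf3 -0.39, adjusted p = 0.0202). Leaving out BTBR ASIV 2, the library with the highest Irf1 level of its group, did so for Irf1 alone (-0.40, adjusted p = 0.0212), and each of these 3 settings also brought the Irf1 interaction past the threshold (-0.57 to -0.51, adjusted p 0.0277 to 0.0434).

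Irf7, which amplifies the type I response and is itself induced by it, had 0.877, 0.834 and 1.52 FPKM in BTBR ASIV, against 0.951, 0.806 and 0.77 FPKM in BTBR vehicle. In C57 mice it had 0.704, 1.02 and 0.694 FPKM under ASIV and 0.852, 1.4 and 0.652 FPKM under vehicle. In each pair of groups compared the ranges overlapped, with 1 high library in BTBR ASIV and 1 in C57 vehicle, and its lowest adjusted p was 0.474.

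Stat2 and Irf9, which act together in ISGF3, showed no called difference. Stat2 had 4.18, 3.39 and 3.77 FPKM in BTBR ASIV, against 4.49, 2.88 and 4.87 FPKM in BTBR vehicle. It had 3.18, 3.84 and 3.5 FPKM in C57 ASIV and 3.14, 3.35 and 3.55 FPKM in C57 vehicle. All groups overlapped, with 1 low BTBR vehicle library. Without it the difference was larger, and Stat2 was called higher in BTBR vehicle than in C57 vehicle (0.39, adjusted p = 0.0114, against 0.20 ± 0.14 and adjusted p = 0.256 with all libraries). Irf9 had 2.13, 1.85 and 1.91 FPKM in BTBR ASIV, against 1.67, 0.685 and 1.76 FPKM in BTBR vehicle. In C57 mice it had 1.44, 1.96 and 1.28 FPKM under ASIV and 1.73, 1.87 and 1.99 FPKM under vehicle. The same BTBR vehicle library, replicate 2, was the lowest of all 12 for both genes. The BTBR groups of Irf9 did not overlap, and their difference was 0.35 ± 0.17 (adjusted p = 0.134), or 0.58 with a pseudocount of 0.1, also not called.

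Counted over the list, 1 of 9 genes was called for BTBR ASIV against BTBR vehicle, where 29.1% of all genes tested were called (13.7% higher, 15.4% lower). At an unadjusted p under 0.05 the counts were 4 of 9 and 41% of all genes. For BTBR vehicle against C57 vehicle 3 of 9 were called, 2 higher and 1 lower, against 43.1% of all genes (22.3% higher, 20.8% lower). Unadjusted, they were 3 of 9 and 50.7%. In neither comparison was the share of called members larger than that of all genes. For BTBR ASIV against C57 ASIV limma called 0 of 9 against 2.53% of all genes (1.31% higher and 1.22% lower), and voom also called 0. There 2 members, against 19.2% of all genes, had an unadjusted p under 0.05. For C57 ASIV against C57 vehicle 0 of 9 were called by limma and by voom, against 0% of all genes, and 0 members had an unadjusted p under 0.05 (3.07% of all genes). The interaction was called for 1 of 9, against 14.3% of all genes (6.91% higher, 7.36% lower), and 3 of 9 passed unadjusted, against 29.7%. Groups did not overlap for 4 of 9 genes with ASIV in BTBR mice and for 4 of 9 between the vehicle groups, where the shares of all genes were 39.1% and 53.3%. The corresponding counts were 1 of 9 for the strains under ASIV and 1 of 9 for ASIV in C57 mice, against 26.2% and 13.1%.

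The direction was mixed. With ASIV in BTBR mice 6 of the 9 log2 differences were below 0 and 3 above, with a median of -0.12 (all genes -0.007), and between the vehicle groups 6 were above 0 and 3 below, with a median of 0.22 (all genes 0.012). These 2 comparisons share the BTBR vehicle libraries. Ifitm3, Irf9 and Irf7 were the 3 with the opposite sign to the rest in both, and of them only Ifitm3 was called. With library scaling that left the mitochondrial genes out, the all-gene median was 0.1136 for ASIV in BTBR mice and -0.0948 between the vehicle groups. The share of calls that were higher was then 72.9% for ASIV in BTBR mice, against 47.1% in the main analysis, and 35.5% between the vehicle groups, against 51.7%. The called members were the same under both scalings.

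**Figure D3:**
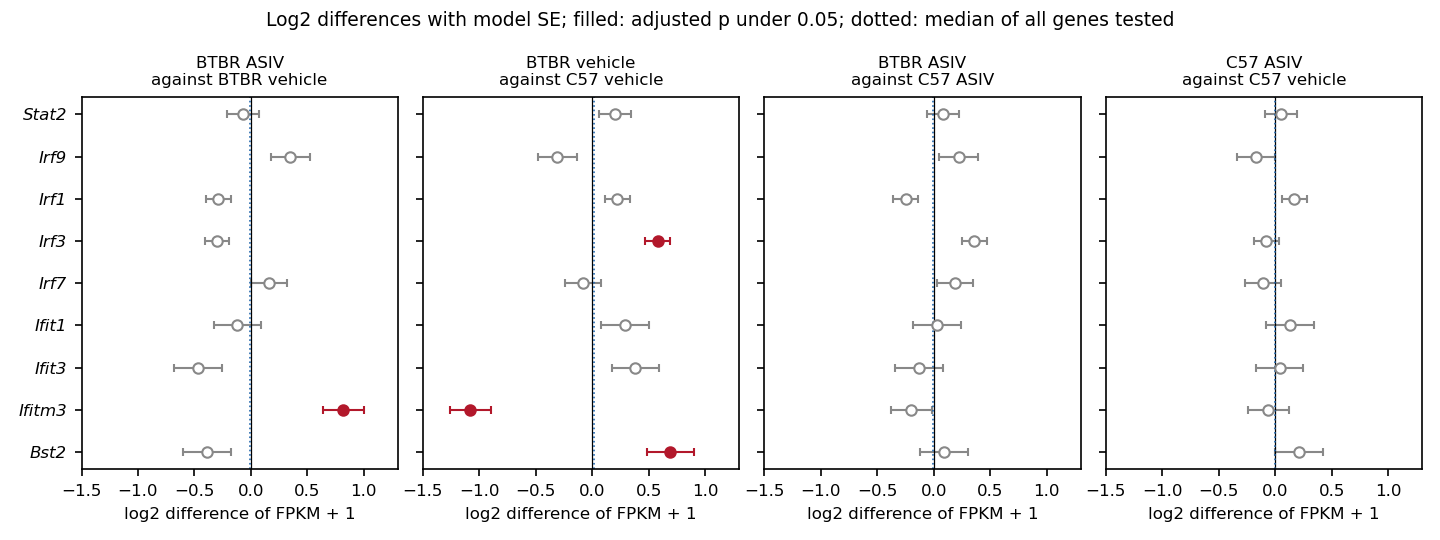
Log2 differences of FPKM + 1 (x axis) with the SE of the model for the 9 genes in 4 comparisons; filled red points passed an adjusted p of 0.05 and the dotted line is the median of all 13586 genes. Ifitm3 lies at 0.82 and Bst2 at -0.39 for ASIV in BTBR mice, and at -1.08 and 0.69 between the vehicle groups.

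The listed genes did not share 1 pattern across libraries. Likeness was measured as the mean absolute difference of log2(FPKM + 1), each gene centred on its mean over the 12 libraries, so that 0 is an identical pattern; it is a description without a test. Within the list the closest pair was Stat2 and Irf1 (0.160), Ifit1 and Ifit3 stood at 0.177, and the farthest were Ifitm3 with Irf3 (0.609) and Ifitm3 with Bst2 (0.568). The median over all genes was 0.210 for Stat2, 0.208 for Irf1, 0.274 for Ifit1 and 0.298 for Ifit3. The measure is not scaled, so genes that vary little lie close to each other. The 2 genes most like Ifitm3 among all tested were Jam2 (0.139) and Dscaml1 (0.141), against a median of 0.418 over all genes. For Bst2 they were Gpatch11 (0.126) and Arl6ip6 (0.130), for Irf3 Spns1 (0.055) and Map2k2 (0.061), for Ifit3 Nmi (0.135) and Pygm (0.139), and for Irf1 Ptpn2 (0.069) and Stox1 (0.072). Those of Stat2 were Csad and Pgghg, those of Irf9 Aff1 and Paxip1, those of Irf7 Prkcq and Gcdh, and those of Ifit1 Rock1 and Ntn4.

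Genes with an ISRE core in their promoter window were set beside all genes with a window. Of 327 such genes, 11.3% rose and 14.1% fell with ASIV in BTBR mice, against 13.3% and 15.6% of all 9914 tested entries with a window. Between BTBR vehicle and C57 vehicle 21.4% were higher and 20.8% lower, against 22.8% and 20.7%. This split was chosen after the values were seen and has no test.

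The rest of the pathway was read from 7 further lists. None of the 21 interferon ligand symbols was in the table, so the ligands were not analysed here. Over the other 6 lists, 63 genes were tested, of which 14 (22.2%) were called with ASIV in BTBR mice, 8 higher and 6 lower, and 16 (25.4%) between the vehicle groups, 7 higher and 9 lower. Both shares lie under those of all genes. The median log2 difference of the 63 was 0.04 and -0.05 in these comparisons, against -0.007 and 0.012 over all genes. For ASIV in C57 mice 0 of 63 were called by limma, and for the strains under ASIV 1, Traf3, an adaptor of antiviral sensing. Traf3 averaged 14.5 ± 1.76 FPKM in BTBR ASIV and 9.25 ± 0.994 FPKM in C57 ASIV (0.59 ± 0.14, adjusted p = 0.0497), and this call held in only 6 of 23 alternatives.

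Of 9 tested receptor and kinase genes, 2 rose with ASIV in BTBR mice and none fell, against 13.7% and 15.4% of all genes. Both were chains of the interferon-gamma receptor. Ifngr1 averaged 6.06 ± 0.398 FPKM in BTBR ASIV and 3.72 ± 0.181 FPKM in BTBR vehicle (SD, n = 3 each), a log2 difference of 0.58 ± 0.09 (adjusted p = 0.000816). Its C57 vehicle mean was 6.0 ± 0.521 FPKM, and BTBR vehicle lay below it by a log2 difference of -0.57 ± 0.09 (adjusted p = 0.000459). Ifngr2 averaged 10.2 ± 0.567 FPKM in BTBR ASIV, 7.48 ± 0.497 FPKM in BTBR vehicle and 11.2 ± 0.802 FPKM in C57 vehicle. It rose with ASIV by 0.41 ± 0.10 (adjusted p = 0.0111) and was lower in BTBR vehicle than in C57 vehicle, at -0.53 ± 0.10 (adjusted p = 0.00154). These 4 calls held in all 23 alternatives. The chains of the type I receptor were not called: Ifnar2 gave 0.14 ± 0.11 with ASIV in BTBR mice (adjusted p = 0.36) and Ifnar1 -0.21 ± 0.09 between the vehicle groups (adjusted p = 0.083). With scaling without mitochondrial genes Ifnar1 passed (-0.33, adjusted p = 0.0191). Between the vehicle groups 1 of the 9 was higher and 2 were lower in BTBR, against 22.3% and 20.8% of all genes. The higher one was the receptor kinase Jak2 (0.37 ± 0.12, adjusted p = 0.0227). Its call was lost with scaling without mitochondrial genes (0.24, adjusted p = 0.126) and without BTBR vehicle 3, C57 vehicle 1 or C57 vehicle 3 (adjusted p 0.0562 to 0.0927).

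Of 3 other interferon regulatory factors tested, 2 rose with ASIV in BTBR mice, where 13.7% of all genes did. A list of 3 is too short for its share to be compared. Irf2, known as a repressor at ISRE sites, averaged 2.2 ± 0.246 FPKM in BTBR ASIV and 1.41 ± 0.0604 FPKM in BTBR vehicle (0.40 ± 0.10, adjusted p = 0.00956), and BTBR vehicle was below the 2.31 ± 0.121 FPKM of C57 vehicle (-0.46 ± 0.10, adjusted p = 0.00301). With voom these 2 differences of Irf2 were 0.63 and -0.71. Irf5, which acts downstream of Toll-like receptors, averaged 2.1 ± 0.131 FPKM in BTBR ASIV and 1.28 ± 0.283 FPKM in BTBR vehicle (0.45 ± 0.11, adjusted p = 0.0109; 0.70 with a pseudocount of 0.1 and 0.74 with voom). Irf8, a factor of myeloid cells, was not called (0.01 ± 0.11 with ASIV in BTBR mice, adjusted p = 0.931). Of 10 tested sensors and adaptors 1 rose with ASIV in BTBR mice, against 13.7% of all genes. It was Tlr7, the endosomal receptor of single-stranded RNA, at 1.57 ± 0.499 FPKM in BTBR ASIV and 0.56 ± 0.319 FPKM in BTBR vehicle (0.72 ± 0.17, adjusted p = 0.00841; 18 to 59 fragments per BTBR vehicle library). The ratio of these Tlr7 means was 2.8, and the log2 difference was 1.41 with a pseudocount of 0.1 and 1.60 with voom, both called. Between the vehicle groups 1 of 10 was lower in BTBR, against 20.8% of all genes. It was Myd88, the adaptor of most Toll-like receptors (-0.31 ± 0.11, adjusted p = 0.0295; -0.47 with voom). That call was lost with 3 alternatives (TPM scaling, quantile normalization and voom, adjusted p 0.0514 to 0.0599) and without BTBR vehicle 1 or 3 or C57 vehicle 2 or 3 (adjusted p 0.0587 to 0.102).

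Of 25 other interferon-induced genes tested, 2 rose and 4 fell with ASIV in BTBR mice, against 13.7% and 15.4% of all genes. In BTBR vehicle 3 were higher and 2 lower than in C57 vehicle, against 22.3% and 20.8% of all genes. Ifi27 averaged 19.9 ± 1.67 FPKM in BTBR ASIV, 33.2 ± 4.16 FPKM in BTBR vehicle and 18.5 ± 1.18 FPKM in C57 vehicle. It fell with ASIV (-0.71 ± 0.11, adjusted p = 0.000627) and was higher in BTBR vehicle (0.81 ± 0.11, adjusted p = 0.000116). Adar, which edits adenosine to inosine in double-stranded RNA, moved the other way, with 14.1 ± 0.835 FPKM in BTBR ASIV, 9.65 ± 0.58 FPKM in BTBR vehicle and 17.0 ± 2.76 FPKM in C57 vehicle (0.51 ± 0.11, adjusted p = 0.00478, and -0.74 ± 0.11, adjusted p = 0.00023). The calls of Ifi27 and Adar held in all 23 alternatives. Ube2l6, the conjugating enzyme of ISG15, fell with ASIV in BTBR mice (-0.48 ± 0.12, adjusted p = 0.0106), and so did Cmpk2, a mitochondrial nucleotide kinase (-0.44 ± 0.12, adjusted p = 0.0162). The call of Cmpk2 was lost with scaling without mitochondrial genes (adjusted p = 0.0801), in a fit of the 2 groups alone (adjusted p = 0.0511) and without BTBR ASIV 2 (adjusted p = 0.055) or BTBR vehicle 2 (adjusted p = 0.0531). Between the vehicle groups Ube2l6 (0.42 ± 0.12, adjusted p = 0.0143) and Trim21, a cytosolic antibody receptor (0.40 ± 0.12, adjusted p = 0.0165), were higher in BTBR. Trim21 averaged 1.12 ± 0.0343 FPKM in BTBR vehicle and 0.61 ± 0.128 FPKM in C57 vehicle, and its log2 difference was 0.80 with a pseudocount of 0.1 and 0.91 with voom. Both calls were lost without C57 vehicle 1 (adjusted p 0.068 and 0.0735), and Ube2l6 also with scaling without mitochondrial genes (adjusted p = 0.0633).

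Of 7 tested interferon-induced GTPases, a family that acts against intracellular microbes, 1 fell with ASIV in BTBR mice, against 15.4% of all genes. It was Gbp3 (1.37 ± 0.402 FPKM in BTBR ASIV and 2.37 ± 0.244 FPKM in BTBR vehicle; -0.52 ± 0.13, adjusted p = 0.0103, and -0.82 with voom). Between the vehicle groups 1 of the 7 was higher and 2 were lower in BTBR, against 22.3% and 20.8% of all genes. Irgm1 (-0.50 ± 0.14, adjusted p = 0.0139) and Irgm2 (-0.48 ± 0.16, adjusted p = 0.0304) were lower and Gbp9 higher (0.30 ± 0.11, adjusted p = 0.0462). Irgm1 averaged 0.661 ± 0.177 FPKM in BTBR vehicle and 1.37 ± 0.392 FPKM in C57 vehicle, a ratio of 0.484, and its log2 difference was -0.94 with a pseudocount of 0.1 and -1.02 with voom. Irgm2 averaged 0.95 ± 0.446 FPKM in BTBR vehicle and 1.68 ± 0.205 FPKM in C57 vehicle, a ratio of 0.565, with -0.86 and -0.94 under the same settings. Those of Gbp9 were 0.52 and 0.57. Gbp9 was called in 9 of 22 alternatives, and was lost among others with pseudocount 0.1 (adjusted p = 0.0553), scaling without mitochondrial genes (adjusted p = 0.156) and on leaving out any of 9 libraries (adjusted p 0.0549 to 0.161), all but BTBR vehicle 3, C57 ASIV 3 and C57 vehicle 3. Irgm1 was lost without C57 vehicle 2 (adjusted p = 0.0708). Irgm2 was lost with TPM scaling (adjusted p = 0.055), in a fit of the 2 groups alone (adjusted p = 0.0633) and without BTBR vehicle 2, C57 vehicle 1 or C57 vehicle 2 (adjusted p 0.0815 to 0.108). All 6 of these GTPases with a RefSeq window held an ISRE core.

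Of 9 tested negative regulators, 1 rose and 1 fell with ASIV in BTBR mice, against 13.7% and 15.4% of all genes. In BTBR vehicle 2 were higher and 1 lower than in C57 vehicle, against 22.3% and 20.8% of all genes. Pias3, an inhibitor of STAT proteins, averaged 5.01 ± 0.708 FPKM in BTBR ASIV, 2.68 ± 0.404 FPKM in BTBR vehicle and 5.66 ± 0.471 FPKM in C57 vehicle. It rose with ASIV (0.71 ± 0.11, adjusted p = 0.000735) and was lower in BTBR vehicle than in C57 vehicle (-0.86 ± 0.11, adjusted p = 9.52e-05), in all 23 alternatives. The phosphatase Ptpn11 fell with ASIV in BTBR mice (-0.32 ± 0.10, adjusted p = 0.0263) and was higher in BTBR vehicle (0.38 ± 0.10, adjusted p = 0.0068), and Pias4 was higher there too (0.31 ± 0.09, adjusted p = 0.0125). With scaling without mitochondrial genes these 3 calls were lost (adjusted p = 0.26, 0.0745 and 0.139). The ASIV call of Ptpn11 was also lost with quantile normalization (adjusted p = 0.0795), in a fit of the 2 groups alone (adjusted p = 0.116) and without BTBR ASIV 1 or 2 or BTBR vehicle 1 or 3 (adjusted p 0.0516 to 0.107).

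**Figure D4:**
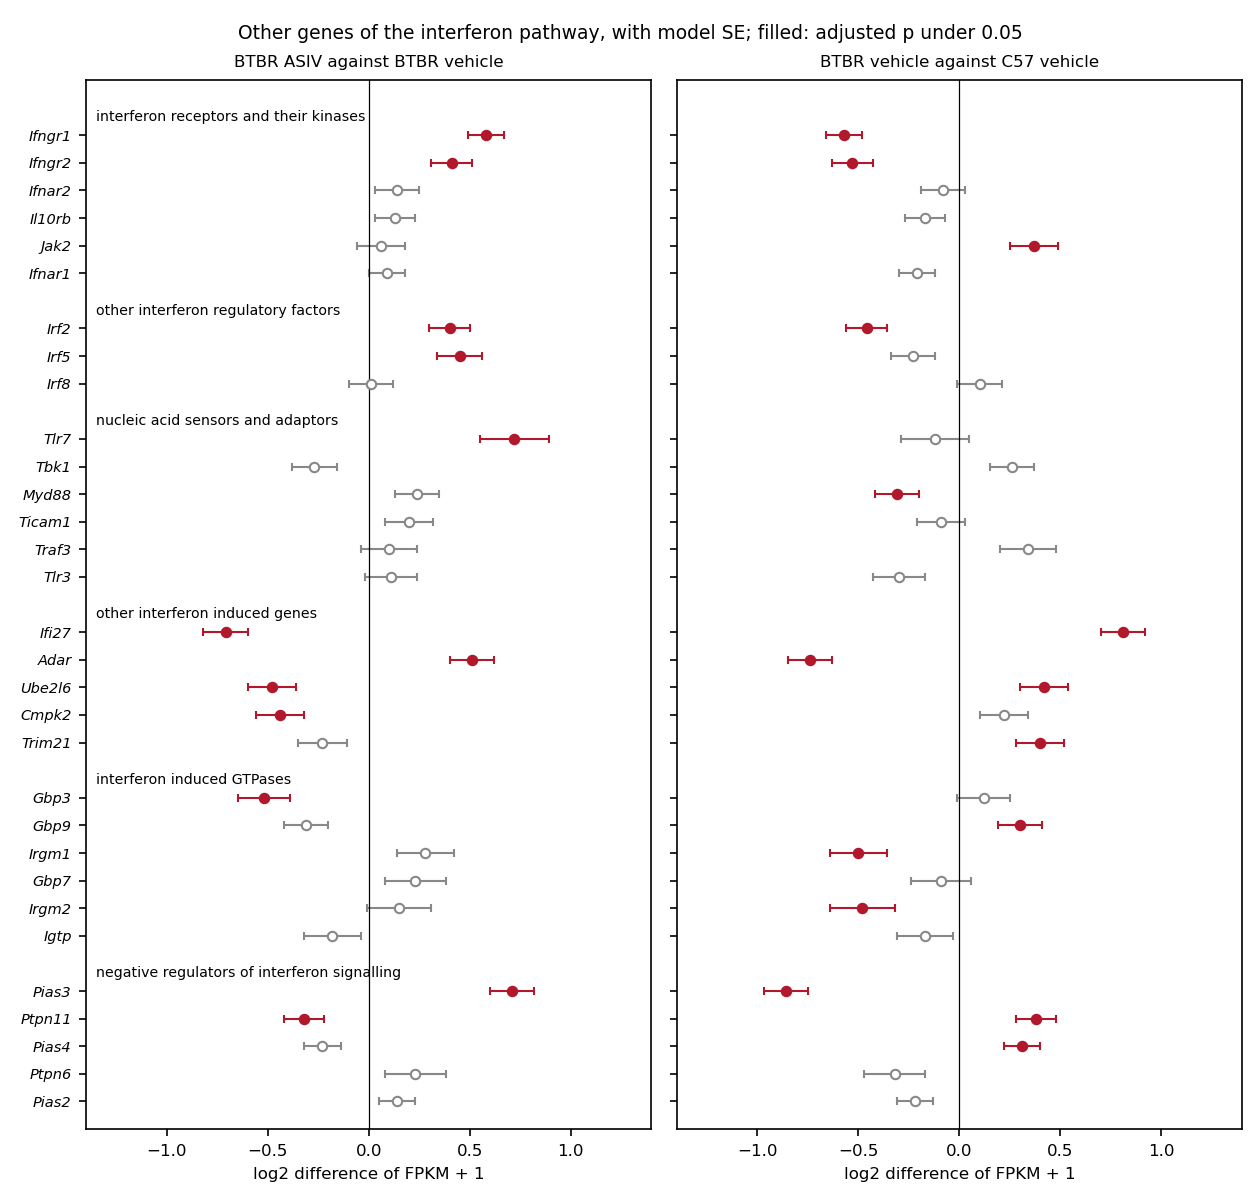
Log2 differences of FPKM + 1 (x axis) with the SE of the model for the 31 named genes of the other pathway lists, for ASIV in BTBR mice (left) and the vehicle groups of the strains (right); filled red points passed an adjusted p of 0.05. Of the genes filled in both panels, Ifngr1, Ifngr2, Irf2, Adar and Pias3 lie above 0 on the left and below 0 on the right. Ifi27, Ube2l6 and Ptpn11 do the reverse. Both panels share the BTBR vehicle libraries.

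Several of these genes are known in endothelial cells and microglia, and in bulk tissue fewer cells of a type and less RNA per cell cannot be told apart. All 11 endothelial markers were in the table and their summed level was 155.9 to 215.1 FPKM in BTBR ASIV, 176.5 to 236.7 in BTBR vehicle, 156.1 to 181.4 in C57 ASIV and 168.9 to 197.1 in C57 vehicle, with the BTBR vehicle range overlapping each of the others. Single markers moved in both directions with ASIV in BTBR mice, 2 of 11 higher (Ly6c1 1.44 ± 0.22, Cdh5 0.53 ± 0.14) and 3 lower (Cldn5 -0.81 ± 0.15, Kdr -0.56 ± 0.14, Tek -0.42 ± 0.12). All 12 microglial markers were in the table as well, with sums of 253.6 to 324.3 FPKM in BTBR ASIV, 239.8 to 295.0 in BTBR vehicle, 227.6 to 243.6 in C57 ASIV and 246.6 to 290.3 in C57 vehicle. Of the 11 tested, 2 rose with ASIV in BTBR mice (P2ry12 1.65 ± 0.16, Cx3cr1 0.47 ± 0.15) and 3 fell (Aif1 -0.76 ± 0.12, Trem2 -0.65 ± 0.09, C1qc -0.48 ± 0.14). Of all genes 13.7% were higher and 15.4% lower with ASIV in BTBR mice, beside both marker lists. Between BTBR vehicle and C57 vehicle 2 of 11 endothelial markers were higher and 2 lower, where 22.3% and 20.8% of all genes were. Of the 11 tested microglial markers 3 were higher and 4 lower, with P2ry12 at -1.88 ± 0.16 and Aif1 at 0.78 ± 0.12. Astrocyte marker sums were 732.0 to 832.4 FPKM in BTBR ASIV and 589.1 to 778.9 in BTBR vehicle. In C57 mice they were 628.6 to 727.8 under ASIV and 741.9 to 867.6 under vehicle. The BTBR vehicle range overlapped each of the others. Of 8 astrocyte markers 1 was higher and 1 lower with ASIV in BTBR mice. Between the vehicle groups 1 was higher and 2 were lower in BTBR, beside the same shares of all genes. None of the 9 lymphocyte markers was in the table. The part of cell composition in the values of Ifitm3, Bst2 and Irf3 was not tested.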

How the data were processed

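RNA of mouse mPFC was sequenced in 12 libraries, 3 in each of 4 groups set by strain and treatment in the labels. The authors deposited 1 table of FPKM per gene and library. Reads were aligned with HISAT2 2.0.5 to mm10, per the submitters' processing notes. Both strains were thus read against the same genome, and the part of this in the strain comparisons was not tested. Counter, annotation, strand and filters: not given in the sources used here. Symbols and exon lengths came from GENCODE M21 (17273 of 17283 identifiers matched). FPKM times exon length gave whole fragments (within 0.02) for 97.6 to 98.0% of values under 50 fragments, and with them the depth of each library.

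Tests used log2(FPKM + 1) of the 13586 genes that reached 1 FPKM in 3 libraries or more. A model of 4 group means was fitted over all 12 libraries with limma 3.58.1 in R 4.3.3 (trended, robust eBayes; 8 residual degrees of freedom). Benjamini-Hochberg adjustment ran over all genes tested in each of 5 comparisons, and an adjusted p under 0.05 was called. A difference is the first group minus the second; the interaction is the ASIV effect in BTBR minus that in C57. The 23 alternatives changed the pseudocount, filter, scaling, model or test, or left out each library. Other steps used pandas 2.3.3, numpy 2.4.6 and matplotlib 3.10.9 under Python 3.11.15.

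The listed genes, the pathway and marker lists and the tests were chosen with earlier results of these data known. Named genes of each pathway list are up to 4 with the smallest p for ASIV in BTBR mice and up to 4 between the vehicle groups, and 2 genes of most alike pattern for each listed gene; other names were chosen after their values were seen. Promoter windows are RefSeq sequences on GRCm38.p6. With 3 libraries against 3, an exact permutation test cannot go below p = 0.1, so none was used.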

Additional observations from a re-analysis of the deposited data

Results flagged for a closer look

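The ASIV effect differed between the strains, by the test of the interaction with limma, for 6 of the genes described. For Ifitm3 the difference was 0.88 ± 0.26 (adjusted p = 0.0395), with log2 differences of 0.82 in BTBR and -0.06 in C57 mice. For Ifngr1 it was 0.71 ± 0.13 (adjusted p = 0.00527), from 0.58 in BTBR and -0.13 in C57 mice. For Ifngr2 it was 0.51 ± 0.15 (adjusted p = 0.0371), from 0.41 and -0.10. For Irf2 it was 0.53 ± 0.14 (adjusted p = 0.0277), from 0.40 and -0.12. Ifi27 had a difference of -0.84 ± 0.15 (adjusted p = 0.005), from -0.71 and 0.13, and Pias3 one of 0.79 ± 0.16 (adjusted p = 0.00715), from 0.71 and -0.08. They were 1 of the 9 listed genes and 5 of the 63 tested genes of the other lists (7.94%), against 14.3% of all genes. The 5 had been named for their small p in comparisons that share the BTBR vehicle libraries with the interaction, so they are a selected set. The calls of Ifngr1, Ifi27 and Pias3 held in all 22 alternatives run. That of Ifngr2 was lost without BTBR ASIV 2 or 3, BTBR vehicle 1 or 3, C57 ASIV 1 or 2 and C57 vehicle 1 or 3 (adjusted p 0.0506 to 0.0896). That of Irf2 was lost with TPM scaling (adjusted p = 0.0519) and without BTBR ASIV 2 or 3, C57 ASIV 1 or 3 and C57 vehicle 1, 2 or 3 (adjusted p 0.0517 to 0.0696). For Ifngr2, Irf2 and Ifitm3 the BTBR effect alone stayed called on leaving out any library. All 6 use the BTBR vehicle libraries, which stood apart in the share of mitochondrial genes, and the part of that in these values was not tested.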

How the results depend on the processing

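Of the alternative values of the 9 genes, 963 kept direction and side of the threshold, 12 lost the call, 9 gained one and 17 changed sign, and all that changed sign belonged to differences that were not called. Quantile normalization raised the members called to 3 for ASIV in BTBR mice and to 2 for the interaction, and voom on recovered fragments lowered the interaction count to 0. Leaving out 1 library gave 1 to 3 members called for ASIV in BTBR mice and 0 to 1 for the interaction. The Stat2 difference for ASIV in BTBR mice was 0.0548 with scaling without mitochondrial genes. Leaving out 1 library gave it -0.252 to 0.0467, and gave -0.00247 to 0.104 for Stat2 with ASIV in C57 mice, -0.196 to 0.0741 for Irf7 between the vehicle groups, and -0.228 to 0.0421 for Irf7 with ASIV in C57 mice. Ifit1 ran from -0.124 to 0.144 between the strains under ASIV and from -0.0365 to 0.362 with ASIV in C57 mice. Ifit3 ran from -0.359 to 0.0261 and from -0.0878 to 0.267 in the same comparisons, Ifitm3 from -0.212 to 0.0797 with ASIV in C57 mice, and Bst2 from -0.0467 to 0.327 between the strains under ASIV. Irf8 with ASIV in BTBR mice was 0.01 in the main analysis, -0.0333 with quantile normalization and -0.0211 to 0.053 without 1 library. Over all genes, the count called for ASIV in BTBR mice was 2258 in a fit of its 2 groups alone, against 3954. Without 1 library the count for the strains under ASIV was as low as 99 and as high as 643, against 344, for the interaction as low as 1166, against 1939, and for ASIV in C57 mice 1 without C57 ASIV 1. The causes were not tested.

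Same-numbered libraries of different groups correlated in their deviations at -0.172 to 0.279. Libraries with different numbers were not compared in this way, so these values cannot decide whether the numbers pair them. With the replicate block 1, 3, 0, 0 and 1 members were called in the 5 comparisons, as without it, and Gbp9 alone lost its call between the vehicle groups (adjusted p = 0.0662). Ifit1, Ifitm3 and Bst2 rested on 28 to 229 fragments in a library.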
